A study of Homo sapiens with 4 samples.

Results

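TNC, THBS1, THBS2, THBS3, FN1, SPARC, SPP1, POSTN, FBN1 and AGRN are 10 genes for matricellular proteins and matrix glycoproteins. They were picked by name, with their earlier results in FOXD2 and empty vector cells known, and each symbol matched 1 of the 60683 gene identifiers in the tables. The values that chose them are therefore described here without a test. RNA came from HCT116, an established human colorectal carcinoma line, in 2 groups of 2 libraries each. FOXD2 cells carried pSin, a lentiviral vector, with the whole FOXD2 coding sequence inserted (FOXD2 is a transcription factor of the forkhead family), and empty vector cells carried pSin without an insert. Both were stably transduced and kept in medium with 5 µg/ml puromycin, so vector and drug were shared. The labels do not say whether the lines were clones or pools, nor whether replicates were separate cultures, so the spread between replicates may be technical.

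Matricellular proteins are secreted into the extracellular matrix, where they act on cells through surface receptors more than as scaffold. Tenascin-C (TNC), thrombospondins, osteopontin (SPP1), SPARC and periostin (POSTN) belong to this class and bind integrins, syndecans, CD36, CD47 or CD44. Fibronectin (FN1) and fibrillin-1 (FBN1) are fibre-forming glycoproteins, and agrin (AGRN) is a heparan sulfate proteoglycan of basement membranes. In tumours of the colon many of these proteins are known mainly as products of stromal fibroblasts.

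Library totals over all genes ran from 14231338 to 15535817 expected counts. The FOXD2 transcript checked the labels, with 526.5 and 479.1 CPM (counts scaled by library total and TMM factor) in FOXD2 libraries against 3.51 and 2.78 CPM in empty vector libraries (log2 fold change 7.32, SE 0.10, edgeR adjusted p = 6.5e-50). The epithelial adhesion gene EPCAM (388.1 and 350.1 CPM in FOXD2 and empty vector cells, on average) and the keratin KRT8 were abundant, as were KRT18 and KRT19. The colon transcription factor CDX2 was measured, with 11.4 and 13.4 CPM in FOXD2 cells against 16.2 and 18.9 CPM in empty vector cells, and KRT20 was low, at 10 to 27 counts per library. CDX1 had 0 counts, and VIL1, CDH17 and LGALS4 at most 6 in any library. FOXD2 replicate 1 stood apart in 5 RNAs made without a polyA tail, whose summed level was 129.3 and 56.8 CPM in FOXD2 replicates 1 and 2, against 29.7 and 28.5 CPM in empty vector cells. FOXD2 replicate 2 also lay above both empty vector libraries, so leaving out replicate 1 does not remove this difference between groups. The part of these RNAs in the results was not tested, and the values without FOXD2 replicate 1 are given below.

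Of the 10 genes, 7 passed the filter on low counts, and THBS2, SPARC and POSTN did not. Both FOXD2 libraries lay above both empty vector libraries for 6 of the 7, namely TNC, THBS1, SPP1, THBS3, AGRN and FBN1. FN1 was the exception, with both FOXD2 libraries below. Among all 14470 genes that passed the filter, 38.9% lay apart upwards in this way and 37.2% downwards, and 53.5% passed the edgeR test in either direction, so nothing is read from the count of the chosen genes. TNC passed the filter through its FOXD2 libraries alone, so it had to differ. In bulk RNA, more cells with a transcript and more of it per cell cannot be told apart.

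**Figure D1:**
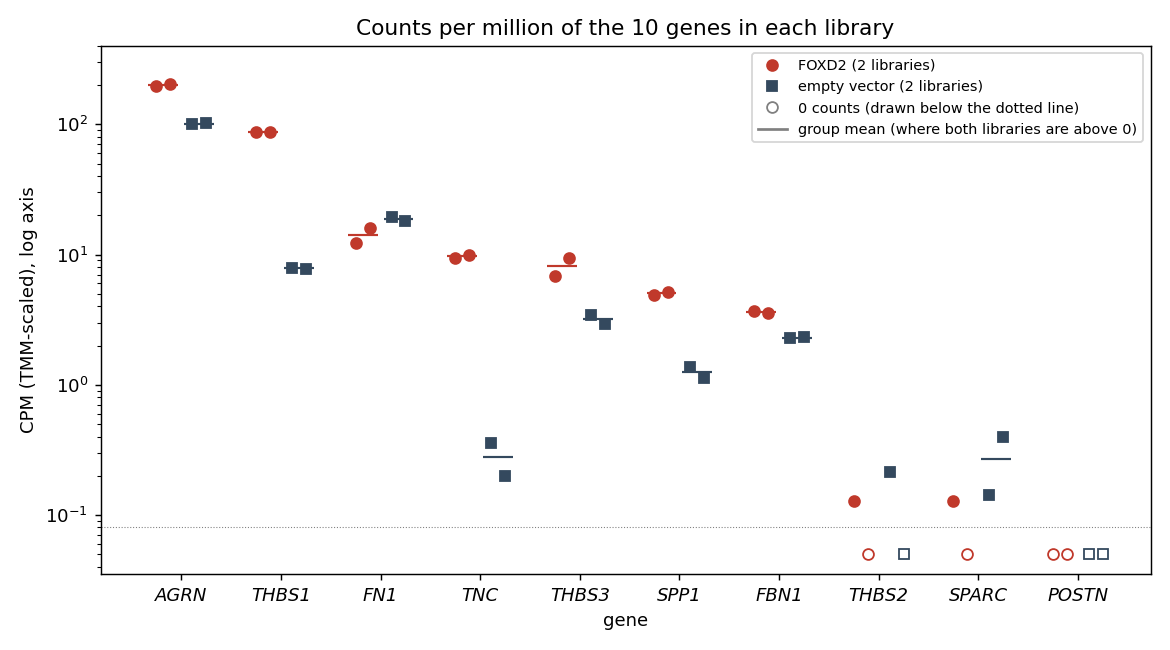
TMM-scaled CPM of the 10 genes (log axis) in 2 FOXD2 libraries (red circles) and 2 empty vector libraries (blue squares), with lines at group means where both libraries are above 0 and open symbols at 0 counts. TNC (9.71 against 0.278 CPM) and THBS1 (87.8 against 7.85 CPM) are the most widely separated, and FN1 is the only gene of the 7 above the filter with empty vector cells on top.

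Tenascin-C is a hexameric glycoprotein that is scarce in most adult tissue and is made in wounds and tumour stroma. TNC had 147 and 146 counts in FOXD2 libraries against 5 and 3 in empty vector libraries. This is 9.44 and 9.98 CPM in FOXD2 cells against 0.358 and 0.199 CPM in empty vector cells, so a gene near the limit of detection in empty vector cells was well above it in FOXD2 cells. The fitted log2 fold change was 5.10 (SE 0.33), the largest of the 10 genes. Because the empty vector cells held 8 counts in all, the ratio of summed counts, 36.9 before TMM scaling, had an exact 95% interval of 18.5 to 86.2, which covers counting error only. TNC (ENSG00000041982) lies on chromosome 9 from 115019578 to 115118257, minus strand, GRCh38, and overlaps DELEC1 on the other strand, which had 2 counts in all 4 libraries together.

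Thrombospondin-1 is a trimeric protein that inhibits angiogenesis, binds CD36 and CD47 and can activate latent TGF-beta. THBS1 had 1363 and 1288 counts in FOXD2 libraries against 111 and 117 in empty vector libraries. Its levels were 87.6 and 88.0 CPM in FOXD2 cells against 7.94 and 7.75 CPM in empty vector cells, with replicates far closer to each other than the groups. The fitted log2 fold change was 3.48 (SE 0.10), with an exact 95% interval for the count ratio of 10.2 to 13.5. THBS1 (ENSG00000137801) spans 39581079 to 39599466 on the plus strand of chromosome 15. THBS1-IT1, an annotated transcript inside an intron of THBS1, had 7 and 2 counts in FOXD2 libraries and 0 in both empty vector libraries. FSIP1, which overlaps THBS1 on the opposite strand, had 5 and 5 counts in FOXD2 libraries against 13 and 14 in empty vector libraries and was lower (log2 fold change -1.46, SE 0.55, edgeR adjusted p = 0.021). The counting program RSEM shared no reads of THBS1, TNC or THBS3 with another gene (posterior SD of 0 counts in every library). Whether counting used strand is not given in the sources used here. A read from the opposite strand could therefore still be counted for the wrong gene of such a pair.

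THBS3 encodes another thrombospondin, of the pentameric group without the type 1 repeats of thrombospondin-1. It had 106 and 138 counts in FOXD2 libraries against 48 and 44 in empty vector libraries. The levels were 6.81 and 9.43 CPM in FOXD2 cells against 3.43 and 2.92 CPM in empty vector cells, and the FOXD2 replicates were spread wider than those of TNC or THBS1. The fitted log2 fold change was 1.35 (SE 0.22), with 1.10 without FOXD2 replicate 2 and 1.56 without FOXD2 replicate 1. THBS3 (ENSG00000169231, chromosome 1, 155195588 to 155209051, minus strand) overlaps MTX1 on the plus strand, which had 41.6 and 42.2 CPM in FOXD2 cells against 46.9 and 44.8 CPM in empty vector cells and did not pass the test (log2 fold change -0.13, SE 0.09, edgeR adjusted p = 0.19). THBS2, a close relative of THBS1, had 2 and 0 counts in FOXD2 libraries and 3 and 0 in empty vector libraries. Its count ratio of 0.671 had an interval of 0.0561 to 5.86, so no difference was detectable at this depth. The thrombospondins thus covered levels from near 0 to close to 90 CPM in the same cells.

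Osteopontin is a phosphorylated, integrin- and CD44-binding protein of bone and of carcinoma cells. SPP1 had 76 counts in each FOXD2 library against 19 and 17 in empty vector libraries. The levels were 4.88 and 5.19 CPM in FOXD2 cells against 1.36 and 1.13 CPM in empty vector cells. The fitted log2 fold change was 2.02 (SE 0.30) and the count ratio of 4.25 had an interval of 2.94 to 6.30. SPP1 (ENSG00000118785) spans 87975650 to 87983426 on the plus strand of chromosome 4, with no other annotated gene overlapping it.

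SPARC and periostin, which are abundant in fibroblasts and bone, were at or near the floor. SPARC had 2 and 0 counts in FOXD2 libraries against 2 and 6 in empty vector libraries, a ratio of 0.252 with an interval of 0.0261 to 1.26. POSTN had 0 counts in all 4 libraries, which allows levels of up to 0.193 to 0.215 CPM at 3 counts per library. Low levels of both genes could not be ranked between the groups. SPARC (ENSG00000113140) lies on chromosome 5 from 151661096 to 151687165, POSTN (ENSG00000133110) on chromosome 13 from 37562583 to 37598844 and THBS2 (ENSG00000186340) on chromosome 6 from 169215780 to 169254044, each on the minus strand.

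Fibronectin, the ligand of integrin alpha-5 beta-1, had 192 and 233 counts in FOXD2 libraries against 270 and 274 in empty vector libraries. Its levels were 12.3 and 15.9 CPM in FOXD2 cells against 19.3 and 18.2 CPM in empty vector cells. The groups did not overlap, but the gap between them was smaller than that between the FOXD2 replicates. The fitted log2 fold change was -0.41 (SE 0.13), with -0.24 without FOXD2 replicate 1 and -0.60 without FOXD2 replicate 2. FN1 (ENSG00000115414) spans 215360440 to 215436172 on the minus strand of chromosome 2 and is annotated with 27 transcripts in the tables.

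Fibrillin-1, the backbone of elastic-fibre microfibrils, had 57 and 52 counts in FOXD2 libraries against 32 and 35 in empty vector libraries. FBN1 reached 3.66 and 3.55 CPM in FOXD2 cells against 2.29 and 2.32 CPM in empty vector cells. The fitted log2 fold change was 0.65 (SE 0.28), so its SE was large for its size. FBN1 (ENSG00000166147) lies on chromosome 15 from 48408306 to 48645849, minus strand.

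Agrin, known for clustering acetylcholine receptors at the neuromuscular junction through LRP4 and MUSK, was the most abundant of the 10. AGRN had 3086 and 2978 counts in FOXD2 libraries against 1395 and 1537 in empty vector libraries. The levels were 198.2 and 203.5 CPM in FOXD2 cells against 99.8 and 101.8 CPM in empty vector cells, and the fitted log2 fold change was 0.99 (SE 0.06). It was the only 1 of the 10 genes whose counts RSEM had to share with other genes, with a posterior SD of 2.90 to 4.29 counts per library. AGRN (ENSG00000188157) spans 1020123 to 1056118 on the plus strand of chromosome 1.

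FOXD2 replicate 1 was the library highest in the RNAs that lack a polyA tail. Without it, the fitted log2 fold changes were 5.13 for TNC, 3.48 for THBS1, 2.05 for SPP1, 1.01 for AGRN and 0.62 for FBN1. Over the omission of each of the 4 libraries in turn, TNC ranged from 4.72 to 5.55 and SPP1 from 1.88 to 2.15, and none of the 7 genes changed sign.

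Promoter sequences are shown for TNC and THBS1, the genes with the largest differences, and for FN1, the gene above the filter that went the other way. RefSeq promoter windows on GRCh38.p14 (250 bases before to 50 after the start of transcription) were found for 9 of the 10 genes, all but AGRN, with 2 windows for THBS3. The 250 bases before the start are printed 5′ to 3′ on the strand of the gene, at chr9:115118158-115118407 (minus strand), chr15:39580829-39581078 (plus strand) and chr2:215436069-215436318 (minus strand). Capitals mark matches to the motifs searched.
TNC promoter: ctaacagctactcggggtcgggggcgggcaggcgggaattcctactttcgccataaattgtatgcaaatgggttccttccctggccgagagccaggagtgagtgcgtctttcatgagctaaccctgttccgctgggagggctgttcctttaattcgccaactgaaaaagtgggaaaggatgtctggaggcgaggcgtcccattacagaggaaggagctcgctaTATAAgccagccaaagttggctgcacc
THBS1 promoter: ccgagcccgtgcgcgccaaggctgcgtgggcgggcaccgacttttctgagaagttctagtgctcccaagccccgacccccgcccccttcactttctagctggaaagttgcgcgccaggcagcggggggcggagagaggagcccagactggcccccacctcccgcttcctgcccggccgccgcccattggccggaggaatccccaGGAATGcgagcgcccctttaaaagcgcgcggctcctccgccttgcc
FN1 promoter: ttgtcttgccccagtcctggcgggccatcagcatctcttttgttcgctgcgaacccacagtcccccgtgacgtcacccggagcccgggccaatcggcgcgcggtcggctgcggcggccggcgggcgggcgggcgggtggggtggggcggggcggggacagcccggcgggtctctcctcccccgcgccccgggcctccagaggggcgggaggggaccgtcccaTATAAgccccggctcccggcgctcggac

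Motifs were searched as plain letters on both strands of the whole windows. The forkhead core TGTTTAC, found in 3.42% of all 35116 promoter windows, was in none of the windows of the 9 genes. The TEAD motif GGAATG, found in 14% of all windows, occurred in THBS1 at -46 from the start, and also in FBN1, SPARC and THBS2. The AP-1 motif TGANTCA (7.71% of windows) occurred in POSTN alone of the 9 genes. The TATA core TATAA (20.4% of windows) occurred at -27 in TNC and at -28 in FN1, and also in THBS2 and POSTN. TNC and FN1, at opposite ends of the log2 fold changes, thus both held it. The printed windows held 1 match each. Their base composition differed, with 57.3% G and C in the TNC window, 70.0% in THBS1 and 76.7% in FN1, against a median of 58.7% over all windows. A match is a description of these letters and not a site that was shown to be bound.

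Levels per transcript length were compared between genes on the authors' TPM scale. The 10 genes summed to 88.0 and 98.7 TPM in FOXD2 libraries against 34.5 and 37.9 TPM in empty vector libraries. AGRN was first in every library and held 57.5% and 60.1% of the sum in FOXD2 libraries against 68.3% and 68.6% in empty vector libraries. The second place differed between the groups. It was held by THBS1 in FOXD2 cells (17.4 and 17.7 TPM, 19.8% and 17.9% of the sum) and by FN1 in empty vector cells (4.87 and 5.03 TPM, 14.1% and 13.3%). THBS1 had 1.34 and 1.48 TPM in empty vector cells, where it lay beside SPP1 at 1.72 and 1.03 TPM, and this pair overlapped. In FOXD2 cells THBS3 followed (6.35 and 8.14 TPM), then SPP1 (4.68 and 5.61 TPM) and FN1 (4.20 and 5.14 TPM), which overlapped each other, then TNC (2.54 and 2.20 TPM) and FBN1 (1.94 and 0.66 TPM).

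**Figure D2:**
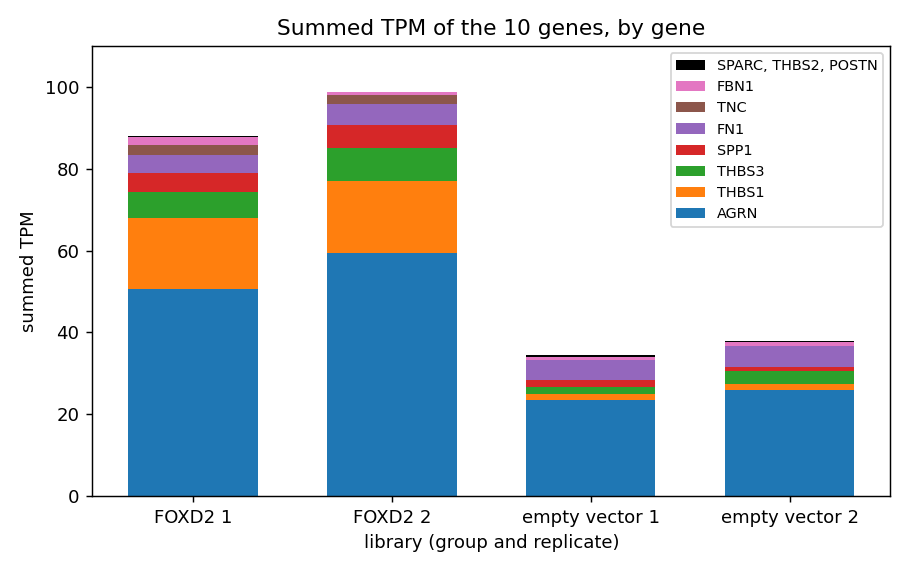
TPM of the 10 genes stacked in each of the 4 libraries, FOXD2 on the left. The sum was 88.0 and 98.7 TPM in FOXD2 cells against 34.5 and 37.9 TPM in empty vector cells, with AGRN the widest band throughout and THBS1 the next in FOXD2 cells.

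TPM divides by a transcript length that RSEM averages over the isoforms of a gene by their estimated share, and this length differed between libraries for the 7 genes above the filter. The mean FN1 transcript was 3964 and 4258 bases long in FOXD2 libraries against 5275 and 4691 bases in empty vector libraries. The 2 groups did not overlap in this length, while they overlapped for THBS1, THBS3, SPP1, FBN1 and AGRN. How many of all genes lie apart in length was not determined, so nothing is read from this separation. On the TPM scale FN1 had 4.20 and 5.14 in FOXD2 cells against 4.87 and 5.03 in empty vector cells, so the groups overlapped and the log2 ratio of means was -0.08, against -0.41 by counts. In these libraries the lower FN1 count came with a shorter estimated transcript, and on the TPM scale the gap was smaller than the spread between replicates. FN1 is known for alternative inclusion of its EDA, EDB and variable exons, but these gene tables do not show which isoforms were read.

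The estimated lengths of TNC did not overlap either, with 4963 and 6149 bases in FOXD2 libraries against 7508 and 6786 bases in empty vector libraries, where these lengths rest on 5 and 3 counts. Its log2 ratio of mean TPM was 5.57. FBN1 showed how loosely such lengths can be set at low counts. Its FOXD2 replicates had 57 and 52 counts, yet mean lengths of 2618 and 7234 bases, and so 1.94 and 0.66 TPM, while empty vector libraries had 0.70 and 0.90 TPM. The groups were apart by CPM and overlapped by TPM. THBS3 lengths were 1580 and 1720 bases in FOXD2 libraries against 2652 and 1384 bases in empty vector libraries, and its levels of 6.35 and 8.14 TPM in FOXD2 cells against 1.80 and 3.09 TPM in empty vector cells kept the groups apart. THBS1, SPP1 and AGRN also stayed apart by TPM, with log2 ratios of mean TPM of 3.64, 1.90 and 1.15.

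**Figure D3:**
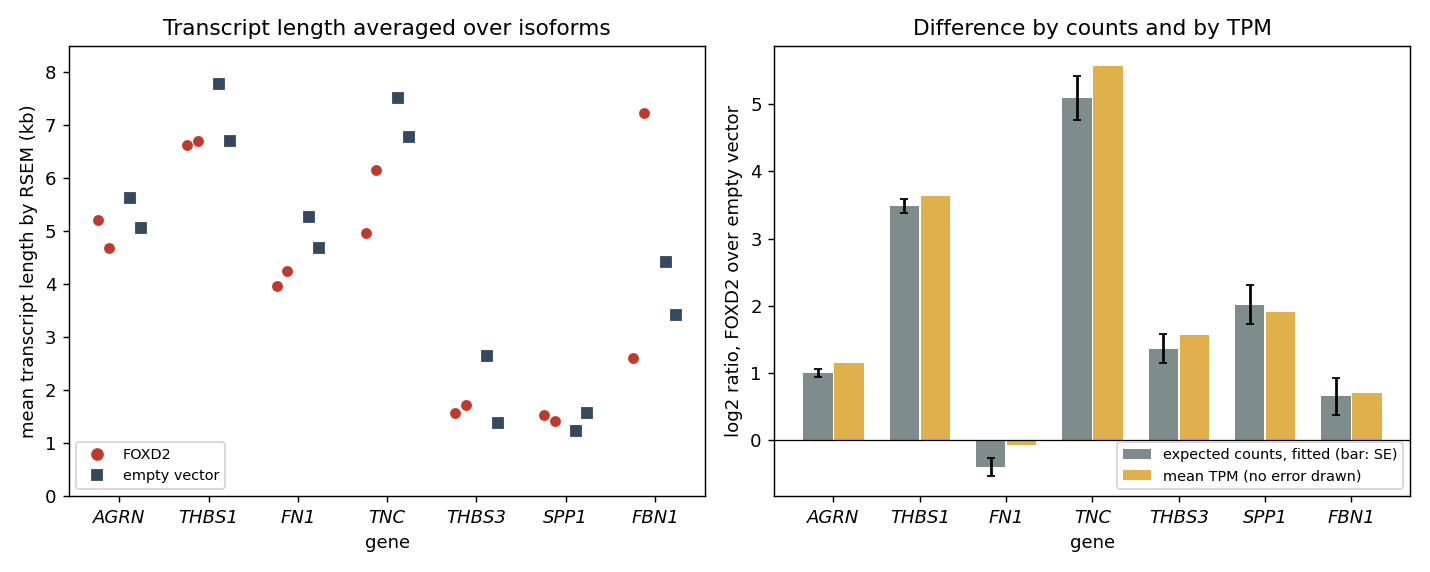
Left, mean transcript length by RSEM (kb) of the 7 genes above the filter in each library, FOXD2 as red circles and empty vector as blue squares. Right, log2 ratio of FOXD2 to empty vector from counts (grey, fitted, with SE) and from mean TPM (yellow, no error drawn), which differ most for TNC (5.10 and 5.57) and FN1 (-0.41 and -0.08).

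The genes most like TNC and THBS1 were named by the root mean square difference in log2 CPM over the 4 libraries, a measure of both level and difference. Nearest to TNC were the BMP antagonist NOG (difference 0.295), the purine enzyme XDH (0.468) and the secreted protease inhibitor SLPI (0.528). NOG had 10.9 and 8.95 CPM in FOXD2 cells against 0.286 and 0.331 CPM in empty vector cells. Nearest to THBS1 were TESC (0.269), the hyaluronan-binding gene CEMIP (0.312) and pyruvate carboxylase PC (0.424). TESC had 70.3 and 66.8 CPM in FOXD2 cells against 7.44 and 8.61 CPM in empty vector cells. With 2 groups of 2, many genes share such a profile.

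Further genes of the matrix were taken from lists that do not hold the 10, and were tested in the fit over all genes. The edgeR fit called 27.2% of all 14470 tested genes higher and 26.4% lower at an adjusted p under 0.05, and their median log2 fold change was 0.01. Of 46 other matricellular and matrix glycoprotein genes 17 were tested, of which 8 rose, 3 fell and 6 did not pass (median log2 fold change 0.23). CCN2, a matricellular protein induced by TGF-beta and YAP, rose to 41.4 and 45.0 CPM in FOXD2 cells, against 1.36 and 1.72 CPM in empty vector cells (log2 fold change 4.8, SE 0.16). ECM1 (3.26, SE 0.23), the fibrillin FBN3 (1.80, SE 0.18), the chondroitin sulfate proteoglycan versican VCAN (1.28, SE 0.06) and fibulin-5 FBLN5 (1.18, SE 0.25) rose as well. The edgeR adjusted p-values of these 5 genes were at most 0.00015. With limma on TPM, FBN3 did not pass and its log2 fold change was 0.22 and 0.31 at pseudocounts of 0.5 and 0.1 (adjusted p = 0.75 and 0.74). FBLN5 did not pass either, at a log2 fold change of 0.99 and 1.13 (adjusted p = 0.064 and 0.078). Without FOXD2 replicate 2 the fitted log2 fold change of FBLN5 was 0.74, and it still passed (edgeR adjusted p = 0.036). VCAN was the most abundant, with 275.2 and 262.7 CPM in FOXD2 cells against 111.9 and 110.4 CPM in empty vector cells. Of the 46, 14 had 0 counts in every library, including tenascin-R and tenascin-N (TNR, TNN) and the thrombospondin COMP.

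Receptors of these proteins went both ways. Of 28 listed, 19 were tested, and 11 rose and 6 fell (median 0.23), so 2 did not pass. The heparan sulfate receptor SDC4 rose to 223.9 and 190.4 CPM in FOXD2 cells, against 82.8 and 83.2 CPM in empty vector cells (log2 fold change 1.32, SE 0.07). The integrin subunits ITGA2 (1.25, SE 0.07), ITGB8 (1.06, SE 0.16) and ITGA6 (0.98, SE 0.06) and the EGF receptor EGFR (1.13, SE 0.06), which EGF-like repeats of tenascin-C can bind, rose too (edgeR adjusted p at most 2.2e-07). Of the 14 integrin subunits on the list 10 were tested, of which 6 rose and 4 fell. ITGA9 fell (-1.61) at low counts, with 9 and 11 in FOXD2 libraries against 32 and 27 in empty vector libraries. ITGB5 (-0.73), ITGAV (-0.55) and ITGB1 (-0.22) fell too, with edgeR adjusted p at most 0.00082 for these 4. ITGA3 (0.29), ITGA5 (0.23) and ITGB4 (0.14) rose, with edgeR adjusted p at most 0.038. ITGA5 and ITGB1, the subunits of the main fibronectin receptor, thus went opposite ways. These 7 subunits, and SDC1, CD44, SDC3, CD47 and LRP4 below, were named after their values were seen. The syndecan SDC1 (-0.35) and the osteopontin receptor CD44 (-0.14) fell as well, and the syndecan SDC3 (0.34) rose. The edgeR adjusted p-values were 6.9e-05 for SDC1, 0.025 for CD44 and 7.0e-05 for SDC3. The thrombospondin receptor CD47 had a log2 fold change of 0.02 (adjusted p = 0.85). The agrin receptor LRP4 did not pass either (-0.14).

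Of 19 genes for TGF-beta ligands, latent binding proteins, receptors and SMADs, 18 were tested, of which 8 rose and 4 fell (median 0.18). The receptor TGFBR2 fell to 9.70 and 8.61 CPM in FOXD2 cells, against 36.3 and 37.2 CPM in empty vector cells (log2 fold change -2.0, SE 0.12). The latent TGF-beta binding proteins, which dock on fibrillin microfibrils, went both ways. Of 4 listed, LTBP1 fell (-1.79, SE 0.18) and 3 rose, LTBP2 by 1.57 (SE 0.22) and, named after their values were seen, LTBP3 by 0.32 (SE 0.06) and LTBP4 by 0.24 (SE 0.07, edgeR adjusted p at most 0.0021 for both). The inhibitory SMAD7 (0.65, SE 0.15), itself a known TGF-beta target, rose (edgeR adjusted p at most 0.00018 for TGFBR2, LTBP1, LTBP2 and SMAD7). SMAD7 did not pass with limma on TPM at a pseudocount of 0.1 (adjusted p = 0.055). Without empty vector replicate 1 or FOXD2 replicate 1, 2 genes of this list fell in place of 4.

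Proteases that cut matrix glycoproteins, with their inhibitors, had the highest median of the 6 lists, 0.86. Of 27 genes 12 were tested, with 8 higher and 1, TIMP3 (named after its value was seen), lower. Without FOXD2 replicate 2, 2 were lower. MMP7, known to cleave osteopontin and fibronectin, rose to 10.5 and 12 CPM in FOXD2 cells, against 0.715 and 0.596 CPM in empty vector cells (log2 fold change 4.09, SE 0.27). The inhibitor TIMP1 (1.45, SE 0.07), the plasminogen activators PLAU (1.42, SE 0.12) and PLAT (1.34, SE 0.12) and the proprotein convertase FURIN (1.19, SE 0.07) rose, with edgeR adjusted p at most 5.3e-08. The inhibitor TIMP2 (0.63, SE 0.06, edgeR adjusted p = 2.9e-12), named after its value was seen, rose as well. Both proteases and inhibitors were thus among the rises.

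Of 22 enzymes that modify or crosslink matrix glycoproteins 19 were tested, and 5 rose and 4 fell (median -0.14), shares near those of all genes. The lysyl oxidase LOXL4 (2.16, SE 0.20) and the transglutaminase TGM2 (1.90, SE 0.11), which crosslinks fibronectin, rose, as did B3GLCT (0.78, SE 0.14), which adds glucose to fucose on thrombospondin type 1 repeats, and LOXL2 (0.43, SE 0.11). The secretory kinase FAM20C, which phosphorylates osteopontin, fell (-0.52, SE 0.11), and edgeR adjusted p was at most 0.00058 for these 5. The fifth rise was that of the transglutaminase TGM1 (1.19, SE 0.35, edgeR adjusted p = 0.0032). TGM1 is known for crosslinking the cornified envelope of keratinocytes, not the matrix. It lay near 1 CPM in empty vector cells and was named after its value was seen. With limma on TPM at pseudocounts of 0.5 and 0.1, LOXL2 (log2 fold change 0.45 and 0.46, adjusted p = 0.16 and 0.19) and FAM20C (-0.33 and -0.34, adjusted p = 0.11 and 0.13) did not pass, nor did LOXL2 without empty vector replicate 2 (0.27, adjusted p = 0.093). Without empty vector replicate 1, 1 gene of the list fell in place of 4, and without FOXD2 replicate 2, 2 fell.

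Of 30 transcription factors known to act on matrix genes 29 were tested, of which 12 rose and 5 fell. FOXD2 is itself among the 12, and without it 11 of 28 rose and the median was 0.23. The AP-1 subunit JUN rose to 203.8 and 192.8 CPM in FOXD2 cells, against 15.6 and 14.7 CPM in empty vector cells (log2 fold change 3.71, SE 0.08). ETS2 (1.60, SE 0.07) and ETS1 (0.96, SE 0.13) rose, and the Hippo effector YAP1 fell to 69.2 and 76.7 CPM in FOXD2 cells, against 147.6 and 140.6 CPM in empty vector cells (-0.98, SE 0.07). The edgeR adjusted p-values were at most 2.2e-08.

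**Figure D4:**
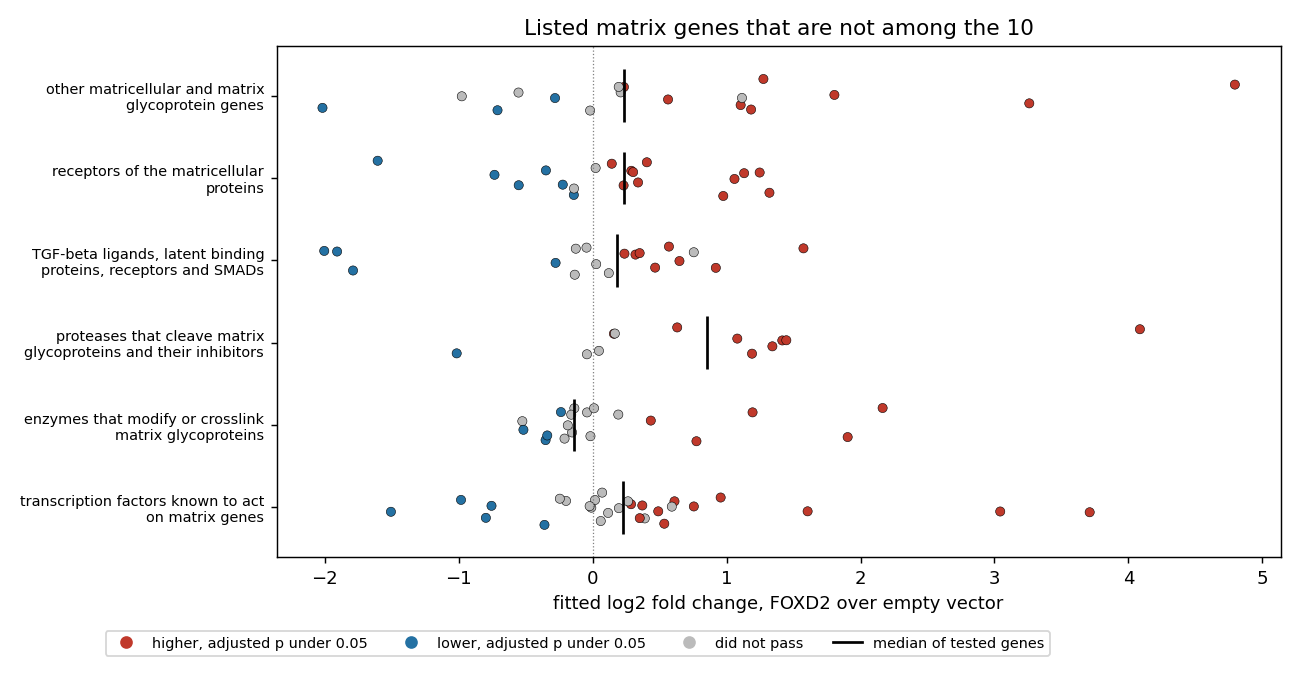
Fitted log2 fold change (FOXD2 over empty vector) of each tested gene of the 6 matrix lists, which exclude the 10 genes, coloured by its edgeR call, with the median as a black line. FOXD2 itself is left out of the transcription factor list, and the protease list has the highest median (0.86).

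Since fibroblasts are a known source of these proteins, markers of other cell types are given beside them. Of 12 fibroblast markers 3 were tested. COL1A1 (1.68) and ACTA2 (1.10) rose and TAGLN (-1.63) fell, with edgeR adjusted p at most 5.4e-06. The summed level of the 12 was 43.4 and 42.8 CPM in FOXD2 cells against 18.9 and 20.6 CPM in empty vector cells. COL1A1 held 31.4 and 32.8 CPM of this in FOXD2 cells and 9.44 and 10.6 CPM in empty vector cells. COL1A2, DCN, LUM, PDGFRA, FAP and THY1 had 0 counts in every library, and COL3A1, COL5A1 and PDGFRB had at most 6. Of 7 endothelial markers 2 were tested and EGFL7 rose (0.42). The summed level of the 7 was 59.3 and 57.4 CPM in FOXD2 cells against 44.4 and 42.7 CPM in empty vector cells. Nearly all of this was EGFL7, at 57.6 and 56.3 CPM in FOXD2 cells against 43.2 and 41.9 CPM in empty vector cells. CDH5 and CLDN5 were at 0, and PECAM1 had at most 1 count per library. None of the 7 leukocyte markers had enough counts to be tested, and their summed level was 0.964 and 0.957 CPM in FOXD2 cells against 0.572 and 0.861 CPM in empty vector cells, with PTPRC and CD3E at 0. A list of 6 packaging cell markers was added with carry-over from virus production in mind, but which cells made these transcripts cannot be told here. Of the 6, 2 rose (VGF, 1.16, and PAX2, 0.42), ZIC2 fell (-0.57), and NEFM and NEFL were at 0. The summed level of the 6 was 98.4 and 88.6 CPM in FOXD2 cells against 69.5 and 72.0 CPM in empty vector cells. PAX2 did not pass with DESeq2 (adjusted p = 0.18), with limma on TPM (0.053 and 0.057 at pseudocounts of 0.5 and 0.1) or without empty vector replicate 1 (0.16), empty vector replicate 2 (0.061) or FOXD2 replicate 2 (0.096). Of 12 genes listed as colorectal epithelial markers 8 were tested. Of these 5 rose, among them CDH1 (1.09) and KRT19 (1.04), and CDX2 fell (-0.51). The 12 and the 8 include vimentin (VIM), a mesenchymal marker, which did not pass (-0.16, edgeR adjusted p = 0.66). The summed level of the 12 was 8349 and 7841 CPM in FOXD2 cells against 4416 and 4547 CPM in empty vector cells. It came mostly from keratins. The CDX2 call was lost without empty vector replicate 2 (log2 fold change -0.40, adjusted p = 0.056) and with limma on TPM (-0.18 and -0.19 at pseudocounts of 0.5 and 0.1, adjusted p = 0.66 and 0.68). The part of these marker changes in the results on the 10 genes was not tested.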

How the data were processed

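RNA from 2 FOXD2 and 2 empty vector samples of HCT116 cells was sequenced after TRIzol extraction, polyA selection and a strand-marking NEBNext kit, per the labels' protocols. STAR 2.7.2b, RSEM 1.2.31 and GRCh38 (hg38) are named in the submitters' processing notes. The deposited tables hold, per the file headers, RSEM expected counts, the authors' TPM, transcript lengths in bases and posterior SDs of counts (other quantities, used as deposited by the authors). Of 60683 gene IDs, a symbol was found for 60370 and an entry in GENCODE release 29, the source of coordinates and overlaps, for 58496.

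Expected counts were rounded. The groups were compared with edgeR 4.0.16 in R 4.3.3 (TMM, filterByExpr, robust quasi-likelihood fit), with Benjamini-Hochberg adjustment over 14470 genes and a threshold of 0.05. The SE is the log2 fold change divided by the square root of the F statistic. CPM are TMM-scaled, and means are over n = 2 per group. Limits from 0 counts use 3 counts per library, and intervals cover counting error only. Replicates differed beyond sampling noise (chi-square per degree of freedom 4.13 in FOXD2 and 2.62 in empty vector cells). The fits were tested on simulated data.

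The 10 genes, the gene lists and the tests were chosen with earlier results of these data known. Named genes were the 10, FOXD2, the 5 called genes per list with the largest change (mean log2 CPM at least 1, groups apart) and the 3 genes most like TNC and THBS1. Of these, 1 listed gene is not reported here. Alternatives were RLE and upper quartile factors, DESeq2 1.42.0, limma-voom and limma 3.58.1 on log2(TPM + 0.5) or log2(TPM + 0.1), other filters, a replicate block and each library left out. FPKM and the Bayesian estimates were not used here.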

Additional observations from a re-analysis of the deposited data

How the results depend on the processing

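FOXD2 was higher under all 13 alternatives, by 6.97 to 7.49 on the log2 scale, and the 7 measured matrix genes kept their sign under all of them. Of 47 other named genes, 40 kept their call throughout. Most shifts came with TPM, where length enters and a pseudocount shrinks low values by construction. At pseudocounts of 0.5 and 0.1 the log2 fold changes were 2.38 and 4.04 for TNC, -0.082 and -0.089 for FN1, 1.61 and 1.87 for SPP1, 0.38 and 0.48 for FBN1, and 1.13 and 1.14 for AGRN, and at 0.5 that of THBS1 was 3.24. With limma on TPM at 0.5 and 0.1, 2424 and 2150 genes were higher (3929 with edgeR on counts) and 1527 and 1273 lower (3816). Over the 6 matrix lists, 52 distinct genes, FOXD2 itself among them, were higher and 23 lower with edgeR. Among all 14470 tested genes edgeR called 27.2% higher and 26.4% lower. At a pseudocount of 0.1, 33 were higher, and 8 were lower at either pseudocount. By list at 0.5 and 0.1, 7 and 6 receptors were higher (11) and 1 and 0 lower (6), 4 and 3 TGF-beta genes were higher (8), 0 and 1 other matricellular genes lower (3), 2 and 2 transcription factors lower (5), 1 and 1 enzymes lower (4), and at 0.1, 3 enzymes were higher (5). DESeq2 called 15 listed genes lower, with 1 other matricellular gene, 2 TGF-beta genes, 0 proteases and 2 enzymes. Beside these counts of 0, an unadjusted p under 0.05 gave 3 receptors (limma, 0.1), 3 other matricellular genes (limma, 0.5) and 1 protease gene (DESeq2). Upper quartile factors gave 2 lower enzymes, and no filter gave 2 lower proteases. The cause of these shifts in counts of calls was not tested.

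Leaving out each library in turn gave log2 fold changes of 1.88 to 2.15 for SPP1, 2 to 4 lower TGF-beta genes, 1 to 2 lower proteases and 1 to 4 lower enzymes. A lone sample of a group was there assumed to vary like the other group. With the replicate block 3680 genes were higher and 3494 lower, and no call of a named gene changed. The numbers were not shown to pair the samples (correlation of same-numbered deviations -0.10). Depth limits THBS2, SPARC and POSTN, whose counts were too few to rank the groups.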
